A study of Mus musculus with 2 samples.

Results

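Tnf, a cytokine that signals through NF-κB, and 9 genes that either encode NF-κB subunits (Nfkb1, Nfkb2, Rel, Relb), restrain or shape NF-κB activity (Nfkbia, Nfkbiz, Tnfaip3, Bcl3) or are a classical target of it (Icam1) were followed by symbol in single-cell RNA sequencing of mouse pancreatic tumors. These are 10 of the 32285 genes listed in the files, and all 10 were detected. They were described across classes of cells gated by marker transcripts and between the PBS and cmExoaCD11b libraries.

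NF-κB is a family of dimeric transcription factors that inhibitor of κB proteins hold in the cytoplasm. Signals from TNF receptors, Toll-like receptors and the STING pathway activate IκB kinases, the inhibitor is degraded and the dimers enter the nucleus. Among the genes then transcribed are Tnf itself and the inhibitors Nfkbia (IκBα) and Tnfaip3 (A20, a ubiquitin-editing enzyme), so that the response limits itself. In tumors Tnf is made by neutrophils, macrophages, dendritic cells and T cells.

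The tumors were orthotopic pancreatic tumors in young male C57BL/6J mice, grown from a cell line that derives from a spontaneous pancreatic tumor of an engineered mouse whose Cre is driven by Pdx1. One group received PBS. The other received cmExoaCD11b, fibroblast exosomes loaded with cGAMP, an agonist of STING, that also carry mRNA for IL-12 and are coated with an antibody against the myeloid surface protein CD11b. Each group is a single droplet library made from pooled cells of the tumors of several mice, described by the study as immune cells, so there is no replicate, no test was possible, and a difference between mice, cell preparation and treatment cannot be told apart. All intervals below are 95% intervals that cover counting error only.

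The files held 67143628 UMIs (unique molecular identifiers, each standing for a captured transcript molecule) in PBS and 81288480 in cmExoaCD11b. After cell calling, filters and doublet removal, 6839 and 7083 cells were kept, with a median of 3464 and 4098 UMIs per cell. The called cells of both libraries shared 18 barcodes. The classes were 4065 and 3985 neutrophils, 444 and 990 T cells, 424 and 76 macrophages, 254 and 386 monocytes, 255 and 256 B cells, and 126 and 198 dendritic cells, in PBS and cmExoaCD11b in that order. Only 82 and 37 cells were gated as epithelial, the class that tumor cells would fall in. For each of these classes the summed level of its own markers was higher than in any other class of its library. The gates use these same markers, so this is no independent check of them. RNA free in the suspension made up an estimated 8.35% of the UMIs of a PBS cell and 9.92% in cmExoaCD11b, though single estimates ranged from 2.65% to 25.0% and from 3.88% to 26.1%.

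The sequences around the start sites were searched for a κB motif, letters that NF-κB binds. RefSeq promoter windows (build GRCm38.p6, 250 bases before to 50 after a start) matched 7 of the 10 genes by symbol, and none was at hand for Nfkb1, Relb and Nfkbiz. A κB motif match, on either strand, lay in a window of 5 of the 7 genes: Nfkb2, Rel, Nfkbia, Tnfaip3 and Bcl3. The only match of Bcl3 lay after the start, beginning at base 3 counted from the start site. Among all 27025 genes with a window, 5.14% had one. The windows of Tnf and Icam1 held no match, which says only that these letters are not in this stretch. The Tnf window held TATAAA, the TATA box, starting 29 bases before the start, and 13.6% of all windows held these letters on either strand. The 250 bases before the first start of 4 genes whose levels are followed below are printed 5′ to 3′ on the strand of the gene, with the κB motif match in capitals for Nfkbia, Tnfaip3 and Nfkb2, and TATAAA in capitals for Tnf. Overlapping matches of Nfkb2 form 1 run of capitals.
Tnf, chr17:35202008-35202257, minus strand: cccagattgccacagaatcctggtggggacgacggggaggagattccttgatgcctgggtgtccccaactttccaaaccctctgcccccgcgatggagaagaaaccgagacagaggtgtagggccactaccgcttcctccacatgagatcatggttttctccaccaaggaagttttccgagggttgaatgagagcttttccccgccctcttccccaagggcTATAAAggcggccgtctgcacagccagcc
Nfkbia, chr12:55492648-55492897, minus strand: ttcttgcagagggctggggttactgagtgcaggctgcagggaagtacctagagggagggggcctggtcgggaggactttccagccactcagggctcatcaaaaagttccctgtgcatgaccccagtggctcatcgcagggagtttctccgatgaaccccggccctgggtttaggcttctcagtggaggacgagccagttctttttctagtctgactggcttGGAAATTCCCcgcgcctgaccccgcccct
Tnfaip3, chr10:19015411-19015660, minus strand: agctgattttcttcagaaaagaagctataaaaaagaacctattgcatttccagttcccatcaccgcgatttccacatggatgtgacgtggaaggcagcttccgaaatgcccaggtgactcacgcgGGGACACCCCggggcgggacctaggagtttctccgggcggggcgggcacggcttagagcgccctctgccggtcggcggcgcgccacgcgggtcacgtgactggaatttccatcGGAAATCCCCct
Nfkb2, chr19:46304487-46304736, plus strand: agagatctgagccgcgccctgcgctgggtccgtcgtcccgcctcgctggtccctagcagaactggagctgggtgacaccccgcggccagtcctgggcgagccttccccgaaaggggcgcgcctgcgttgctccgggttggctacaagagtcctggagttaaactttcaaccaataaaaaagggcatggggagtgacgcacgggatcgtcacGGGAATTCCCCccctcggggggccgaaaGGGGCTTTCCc
The Nfkbia match began 29 bases before the start, and the Tnfaip3 matches 125 and 12 bases before it.

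Tnf, the ligand, was lower in cmExoaCD11b in neutrophils and in antigen-presenting myeloid cells and differed by less than 1.5-fold in T cells. Levels are given as CPM, counts per 1e6: the UMIs of a gene divided by all UMIs of the class, times 1e6. In neutrophils Tnf was at 474 CPM in PBS (13406 UMIs) and 178 CPM in cmExoaCD11b (6585 UMIs), a ratio of 0.376 (0.365 to 0.387). When only the deepest barcodes, those past the ranked-UMI cut-off, were taken as cells, the ratio was 0.673, just inside the fold of 1.5 used here to call a difference. In dendritic cells it was at 515 and 217 CPM, a ratio of 0.422 (0.371 to 0.479). Macrophages stood at 409 and 217 CPM, a ratio of 0.530 (0.458 to 0.610), although only 76 macrophages were left in cmExoaCD11b. Monocytes stood at 319 and 214 CPM, a ratio of 0.671 (0.616 to 0.730), also just inside the fold. All 4 of these classes thus had a lower level in cmExoaCD11b. A class can hold fewer transcripts because each cell has fewer or because fewer cells make them, which the values per cell below address for neutrophils. In monocytes, macrophages and dendritic cells thinned to 1000 UMIs each, the share with a Tnf UMI did not differ beyond counting error. Its ratio was 1.00 (0.669 to 1.52) in monocytes, 0.729 (0.375 to 1.30) in macrophages and 0.624 (0.334 to 1.16) in dendritic cells.

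T cells held 266 CPM of Tnf in PBS and 278 CPM in cmExoaCD11b, a ratio of 1.04 (0.956 to 1.14). CD4 T cells were at 373 and 402 CPM, and CD8 T cells at 140 and 148 CPM. The interval of the CD8 ratio, 0.876 to 1.28, leaves room for a change of either sign. B cells held 54.0 and 18.3 CPM, beside 42.1 and 22.0 CPM that free RNA alone would give, so their Tnf is read as background. The ratio in T cells also differed with interferon state. Cells with at least 2 of the interferon-induced transcripts Isg15, Ifit1, Ifit3 and Rsad2 numbered 136 of 444 T cells in PBS and 473 of 990 in cmExoaCD11b. Their Tnf was at 569 and 504 CPM, and that of the other T cells at 151 and 85.6 CPM, ratios of 0.887 and 0.566. Both parts were thus lower in cmExoaCD11b, while the part with more Tnf made up a larger share of T cells there than in PBS.

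**Figure D1:**
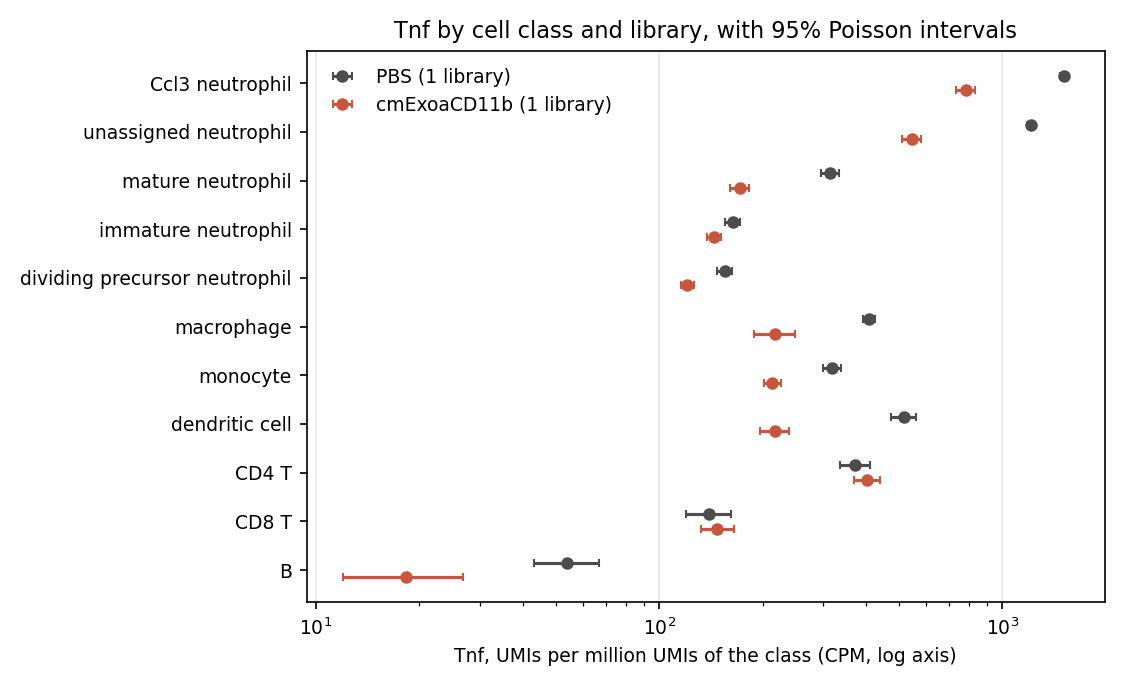
Tnf level in CPM (log axis) for 5 neutrophil states and 6 other classes, with 1 point per library and 95% Poisson intervals. The 5 neutrophil states, macrophages, monocytes, dendritic cells and B cells lie lower in cmExoaCD11b than in PBS, and the CD4 and CD8 T cells lie close together.

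Neutrophils supplied most of the Tnf transcripts, 62.3% of 21520 Tnf UMIs in PBS and 60.6% of 10866 in cmExoaCD11b. These shares lie near their share of all kept cells, 59.4% and 56.3%. Of the UMIs of all genes they held 28276701 of 50428726 in PBS and 36988447 of 61854347 in cmExoaCD11b. The Tnf totals also count cells that no marker gate took, described in the closing section. The share from macrophages was 10.5% and 1.95%, and that from T cells 3.61% and 12.9%. Neutrophils were divided by markers into dividing precursors, immature cells (Ltf, Camp, Ngp, Lcn2, the granule proteins of young neutrophils), mature cells (markers that include Retnlg, Mmp8 and Cxcr2), cells with the chemokines Ccl3, Ccl4 and Cxcl3 (here called Ccl3 neutrophils) and cells that met no rule. Tnf was highest in Ccl3 neutrophils, at 1513 CPM in PBS and 781 CPM in cmExoaCD11b, and in the unassigned cells, at 1211 and 544 CPM. Mature neutrophils held 315 and 171 CPM, immature ones 164 and 144 CPM, and dividing precursors 155 and 121 CPM. With the settings used here Tnf was lower in cmExoaCD11b in 5 of 5 states, with ratios from 0.449 to 0.881, past the fold in the 3 states with the higher levels. Over 10 alternative settings the ratio ran from 0.661 to 1.02 in immature neutrophils, so its direction there is not settled. The highest ratio of mature neutrophils over these settings lay inside the fold. The Ccl3 state itself was smaller, 908 cells in PBS and 397 in cmExoaCD11b. With both libraries given the same mix of states the Tnf ratio of neutrophils was 0.591, against 0.376 as found. Each state was weighted by its mean share of neutrophil UMIs, not of cells. Dividing precursors thus weighed 37.9%, at 8.91% and 16.2% of neutrophils, and immature cells 32.0%. Ccl3 neutrophils weighed 7.17%, at 22.3% and 9.96% of neutrophils. Every ratio at the same mix given below therefore leans on precursor and immature cells.

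Over all neutrophils, the share with a Tnf UMI and the share with at least 5 were both lower in cmExoaCD11b. In cells thinned to 1000 UMIs each, 25.8% of PBS neutrophils (1020 of 3946) and 15.6% of cmExoaCD11b neutrophils (602 of 3855) had a Tnf UMI, a ratio of shares of 0.604 (0.545 to 0.669). B cells, taken as the background, had one in 4.12% and 1.20%. Cells with at least 5 Tnf UMIs made up 5.75% (5.05 to 6.53) of PBS neutrophils and 1.01% (0.720 to 1.38) of those in cmExoaCD11b. By state, the share with any Tnf UMI was not lower in immature neutrophils, at 11.9% and 13.7%, a ratio of 1.15 (0.854 to 1.55). In the other states the ratio ran from 0.616 in unassigned cells to 0.945 in Ccl3 neutrophils. In Ccl3 neutrophils the share with any Tnf UMI was 36.8% (33.6 to 40.1) and 34.8% (30.1 to 39.8), and the intervals overlap. Thinned to 500 UMIs, these shares were 28.6% and 21.4%, a ratio of 0.748 (0.578 to 0.959). At 1000 UMIs the share with at least 5 was 11.4% (9.34 to 13.6) and 4.42% (2.59 to 6.98), and the mean among Ccl3 neutrophils with a Tnf UMI was 4.09 and 2.57 UMIs. The 5% of neutrophils richest in Tnf held 55.8% of its thinned UMIs in PBS and 62.3% in cmExoaCD11b.

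**Figure D2:**
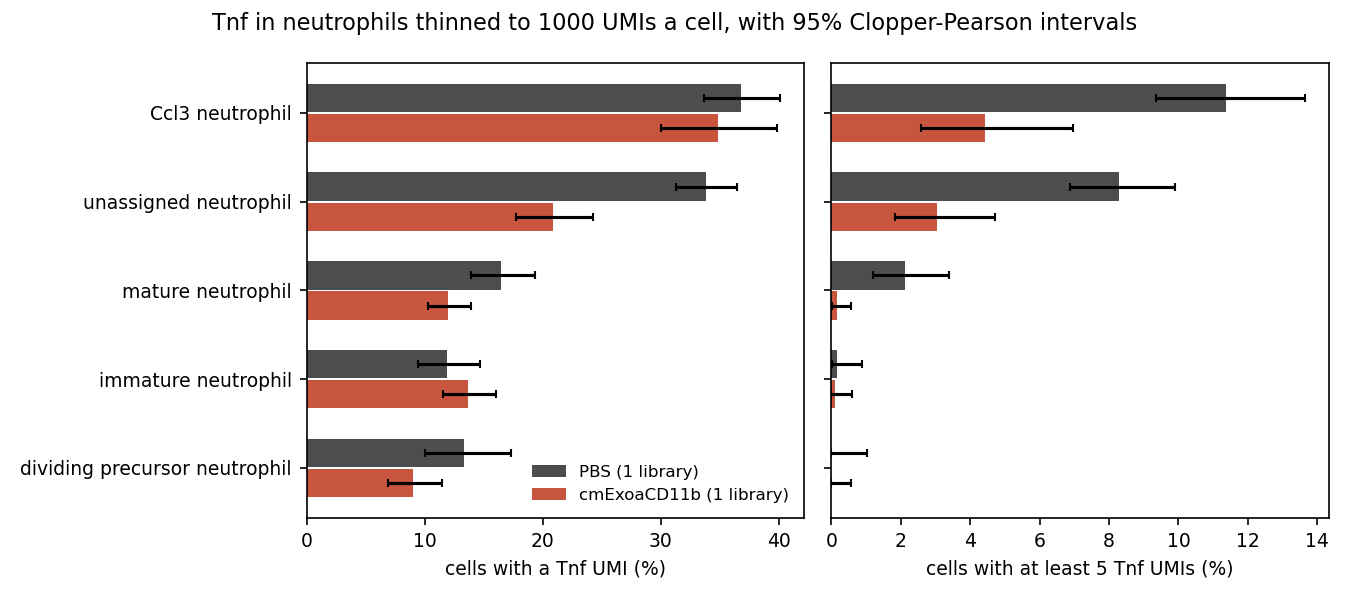
Share of neutrophils with a Tnf UMI (left, %) and with at least 5 Tnf UMIs (right, %), by state and library, in cells thinned to 1000 UMIs; error bars are 95% Clopper-Pearson intervals. In Ccl3 neutrophils the shares with any Tnf UMI (36.8% and 34.8%) have overlapping intervals at this depth, while at 500 UMIs they were 28.6% and 21.4%, and those with at least 5 were 11.4% and 4.42%.

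In neutrophils 2 of the 10 genes were lower by at least 1.5-fold, Tnf and Icam1, and none was higher. Over all 11192 genes with at least 50 UMIs in neutrophils, 8.43% were lower and 9.61% higher by that fold. Among the subunits, Nfkb1, the p105 precursor of p50, was at 144 and 164 CPM in neutrophils, a ratio of 1.14. Rel, the c-Rel subunit, was at 115 and 128 CPM, a ratio of 1.11. Nfkb2, which encodes p100, stood at 24.2 and 24.7 CPM, and its partner Relb at 47.0 and 41.9 CPM. None of these 4 passed the fold.

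Of the inhibitors, Nfkbia was at 3914 CPM in PBS neutrophils and 2611 CPM in cmExoaCD11b, a ratio of 0.667 (0.661 to 0.673) that lies at the edge of the fold. Within the states the Nfkbia ratio ran from 0.891 to 1.23, and with the same mix of states it was 0.976. Tnfaip3 was at 315 and 303 CPM in all neutrophils, yet was higher in cmExoaCD11b in 5 of 5 states, with a ratio of 1.38 at the same mix. Nfkbiz, an atypical nuclear IκB protein, was at 881 and 1045 CPM and was also higher in 5 of 5 states, with a ratio of 1.44 at the same mix. Bcl3, a nuclear IκB protein that partners p50 and p52, was at 39.6 and 58.9 CPM, a ratio of 1.49 as found and 1.64 at the same mix. Its largest ratio among the neutrophil states was in dividing precursors, at 18.3 and 47.6 CPM, a ratio of 2.60 (2.19 to 3.09). 

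State by state the counts were as follows. Ccl3 neutrophils had 3 of 10 genes higher, the subunits Nfkb1, Nfkb2 and Relb, where 8.46% of all genes were, and 1 lower, Tnf, where 20.2% were. Nfkb1 stood at 194 and 336 CPM there. Immature neutrophils had Nfkbiz, Tnfaip3 and Bcl3 higher and none of the 10 lower, where 14.3% of genes were higher and 2.74% lower. Mature neutrophils had 1 higher, Nfkbiz at 1346 and 2167 CPM, and 1 lower, Tnf, where 13.3% and 8.92% were. Dividing precursors had 2 higher, Bcl3 and Icam1, and none lower, where 12.3% and 1.95% were. Thinned to 1000 UMIs, 1.67% of PBS and 1.55% of cmExoaCD11b precursors had an Icam1 UMI. That ratio of shares was 0.932 (0.307 to 3.12), so the shares do not show the Icam1 difference. For Bcl3 it was 4.66 (1.42 to 24.1). The unassigned cells had none higher and Tnf lower, where 12.4% and 12.2% were.

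**Figure D3:**
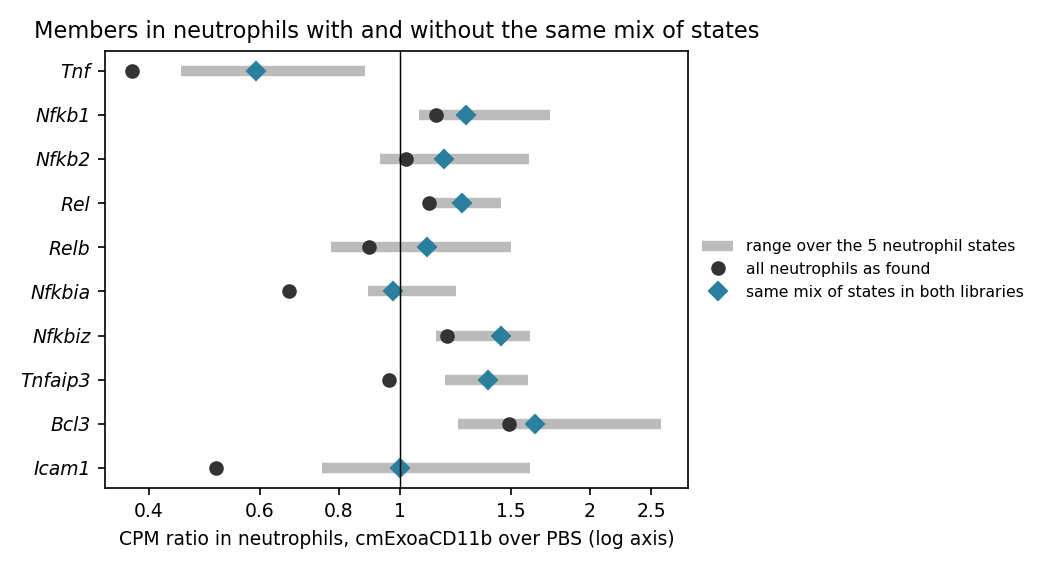
Ratio of CPM in neutrophils, cmExoaCD11b over PBS (log axis), for the 10 genes: circles give all neutrophils as found, diamonds the same mix of 5 states in both libraries (states weighted by UMIs), and grey bars the range over the states. The Tnf bar lies wholly below 1 (0.449 to 0.881), while Tnfaip3, Nfkbiz, Bcl3, Nfkb1 and Rel lie wholly above it. With alternative settings, not drawn, the Tnf ratio of immature neutrophils reached 1.02.

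Icam1, an adhesion molecule that leukocytes bind, went from 124 to 63.3 CPM in all neutrophils, a ratio of 0.511 (0.485 to 0.538). Within the states its ratio ran from 0.753 in mature cells to 1.61 in dividing precursors, and with the same mix it was 1.00. With the ranked-UMI cut-off alone it was 0.768, inside the fold. Icam1 was found more often in neutrophils that held Tnf, with all states pooled. Both genes differ by state. In PBS, thinned to 1000 UMIs, 1.93% of immature and 14.5% of Ccl3 neutrophils had an Icam1 UMI. A Tnf UMI was in 11.9% and 36.8% of them. The pooled shares that follow were not held to the same mix of states. In PBS 29.5% of thinned neutrophils with a Tnf UMI had an Icam1 UMI, against 6.29% of those without. In cmExoaCD11b these shares were 19.8% and 5.75%. For Nfkbiz they were 70.9% and 51.0% in PBS and 75.9% and 61.0% in cmExoaCD11b. In T cells Icam1 did not follow Tnf in this way, with 16.1% and 14.0% in PBS.

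In T cells 3 of the 10 genes were higher in cmExoaCD11b by the fold, and Tnf was not among them. Icam1 was at 149 and 232 CPM, a ratio of 1.56 (1.39 to 1.74), Bcl3 at 30.8 and 49.0 CPM, a ratio of 1.59 (1.24 to 2.05), and Nfkbiz at 384 and 577 CPM, a ratio of 1.503 (1.40 to 1.61). None of the 10 was lower, and 7.81% of all genes were higher and 7.24% lower. Of these calls only Bcl3 was left with doublets kept (1.52, with Icam1 at 1.397 and Nfkbiz at 1.34) and with the ranked-UMI cut-off alone (1.60, with Icam1 at 1.36 and Nfkbiz at 1.16). It was also the only one left with mitochondrial and ribosomal genes out of the total. The share of T cells with a Bcl3 UMI, thinned to 1000 UMIs, was 4.34% in PBS and 5.18% in cmExoaCD11b. That ratio of shares was 1.19 (0.692 to 2.15), and 0.972 at 500 UMIs, so the shares do not show the Bcl3 difference. At 1000 UMIs it was 1.19 (0.884 to 1.62) for Icam1 and 1.44 (1.18 to 1.78) for Nfkbiz. Nfkbia stood at 1492 and 1360 CPM, a ratio of 0.912. Tnfaip3, at 577 and 863 CPM, had a ratio of 1.496 and lay just inside the fold. CD8 T cells showed 5 of 10 genes higher and none lower, against 13.7% and 10.4% of all genes tested there. Among CD8 T cells Bcl3 went from 18.5 to 53.4 CPM (23 and 116 UMIs), Icam1 from 135 to 261 CPM, Nfkbiz from 290 to 528 CPM, Tnfaip3 from 529 to 916 CPM and Nfkb1 from 374 to 562 CPM. The share of CD8 T cells with a Bcl3 UMI had a ratio of 2.29 (0.782 to 9.10) at 1000 UMIs and 0.529 (0.0894 to 3.61) at 500. At 1000 UMIs the ratio of shares was 1.13 (0.802 to 1.61) for Nfkb1 and 1.23 (0.924 to 1.66) for Tnfaip3. It was 1.63 (0.991 to 2.81) for Icam1 and 2.45 (1.61 to 3.86) for Nfkbiz. At 500 UMIs that of Nfkbiz was 1.41 (0.897 to 2.30). In CD4 T cells 0 of 10 genes passed the fold in either direction, where 11.3% of genes were higher and 9.11% lower. The difference between CD4 and CD8 T cells was not tested.

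**Figure D4:**
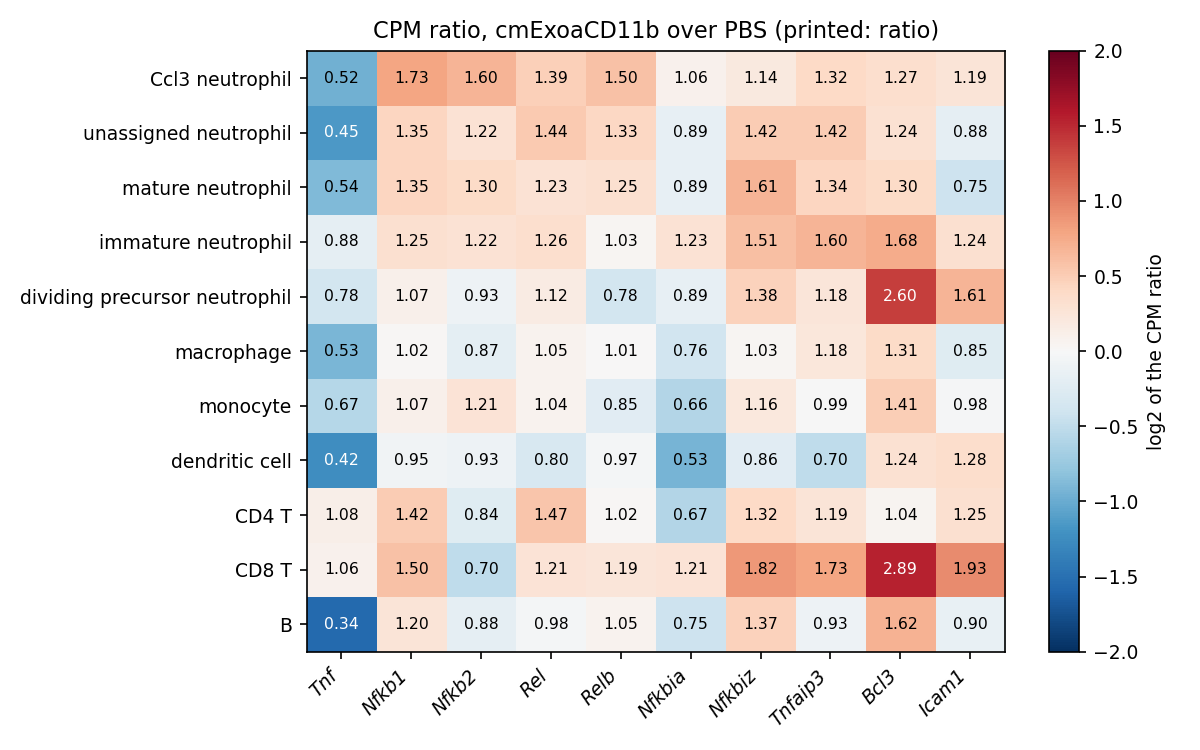
Ratio of CPM, cmExoaCD11b over PBS, for the 10 genes in 5 neutrophil states and 6 other classes; each cell prints the ratio and is coloured by its log2 (red higher, blue lower in cmExoaCD11b). Tnf is the only column below 1 in all 5 neutrophil states, and Bcl3 lies above 1 in each of the 11 rows. The ratio of shares of cells with a Bcl3 UMI, thinned to 1000 UMIs and not drawn, was below 1 in CD4 T cells (0.591, 0.225 to 1.53). It was also below 1 in dendritic cells (0.873, 0.239 to 3.49) and B cells (0.976, 0.365 to 2.61), and above 1 in the other rows. With alternative settings, not drawn, the Tnf ratio of immature neutrophils reached 1.02.

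In dendritic cells, macrophages, monocytes and B cells 1 or 2 of the 10 genes passed the fold. Dendritic cells had 2 of 10 genes lower, Tnf and Nfkbia (1550 and 816 CPM), where 9.38% of genes were lower and 11.9% higher. Macrophages had 1 lower, Tnf, where 9.33% of genes were, and monocytes 1 lower, Nfkbia (2312 and 1534 CPM), where 6.59% were. B cells had 1 higher, Bcl3 at 37.9 and 61.3 CPM, where 9.02% were, and 1 lower, the background-level Tnf, where 7.16% were. Thinned to 1000 UMIs, 4.12% of PBS B cells and 4.02% of those in cmExoaCD11b had a Bcl3 UMI. Classes with fewer cells had more calls. NK cells (34 and 108 cells) had 4 of 7 genes with enough UMIs higher and none lower, where 41.4% and 8.32% of genes were. Epithelial cells (82 and 37 cells) had none higher and 5 of 9 lower, where 6.09% and 15.1% were. Plasma cells (44 and 145 cells) had none higher and 4 of 9 lower, where 30.5% and 3.66% were. Rel had its highest level of the main classes in B cells, at 802 and 783 CPM, followed by dendritic cells at 613 and 491 CPM, and B cells did not differ beyond counting error between libraries. Of the main classes Nfkb1 was highest in dendritic cells in PBS, at 543 CPM, and in T cells in cmExoaCD11b, at 606 CPM.

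Other genes of the NF-κB pathway were counted from a list of 62. Of the 57 with enough UMIs in neutrophils, 2 were higher and 14 lower, where 9.61% and 8.43% of all genes were. The median ratio of the 57 was 0.843, against 1.06 over all genes tested. The lower ones were mainly transcribed targets, 11 of 23: the cytokine Il6 was at 2.47 and 0.487 CPM, and the survival genes Bcl2a1a and Bcl2a1b, near-identical copies among which reads can be split, had ratios of 0.262 and 0.267. The 2 higher ones were the adaptor Myd88 (54.0 and 89.5 CPM) and the chemokine Ccl5 (13.1 and 23.2 CPM). How far free RNA enters the Ccl5 level was not tested. State by state more of the list was higher than lower in immature neutrophils (15 and 2 of 54), Ccl3 neutrophils (8 and 1 of 47) and dividing precursors (7 and 2 of 54), and more was lower than higher in mature (9 and 6 of 53) and unassigned neutrophils (12 and 6 of 53). Of all genes 14.3% were higher and 2.74% lower in immature neutrophils, and 12.3% and 1.95% in dividing precursors. The count of higher list genes in dividing precursors thus lay near the share of all genes. The shares of all genes were 8.46% and 20.2% in Ccl3 neutrophils, 13.3% and 8.92% in mature and 12.4% and 12.2% in unassigned ones. The Ccl3 state was gated on Ccl3, Ccl4 and Cxcl3, which are on this list. Among the targets in Ccl3 neutrophils Sod2, a mitochondrial antioxidant enzyme, was at 245 and 481 CPM. Dendritic cells had 22 of 53 lower and 2 higher, where 9.38% and 11.9% of all genes were. Cxcl2, a neutrophil chemokine, was at 2324 and 412 CPM there, and Cd40, a receptor of antigen-presenting cells, was higher at 27.5 and 72.6 CPM. In T cells 12 of 57 were lower and 3 higher, where 7.24% and 7.81% of all genes were. The lowest there, Cxcl3, Il1a and Bcl2a1a, are genes of myeloid cells, and how far free RNA enters their values was not tested.

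Further lists describe the state of the cells. Of 26 immediate-early genes, which handling and dissociation also induce, 8 were lower and 0 higher in neutrophils, where 8.43% and 9.61% of all genes were. The summed level of the list there was 25909 and 20498 CPM. By state, immature neutrophils had 9 of 24 higher and 1 lower, where 14.3% and 2.74% of all genes were. Dividing precursors had 6 of 25 higher and 0 lower (all genes 12.3% and 1.95%). Ccl3 neutrophils had 4 and 3 of 25 (8.46% and 20.2%). Unassigned cells had 3 and 2 of 25 (12.4% and 12.2%), and mature ones 1 and 3 of 24 (13.3% and 8.92%). In T cells 7 of the 26 genes were higher and 1 lower, where 7.81% and 7.24% of all genes were, with 11191 and 14096 CPM. In pooled neutrophils this list and the pathway list thus both had more genes lower than higher. In T cells as a whole this list and the 10 genes both had more higher than lower. CD4 T cells had 7 of 25 of the list higher and 1 lower (all genes 11.3% and 9.11%), but 0 of the 10 genes past the fold. T cells without a Cd4 or Cd8 UMI had 11 of 23 higher and 0 lower (12.7% and 5.29%), but 0 of the 10 genes higher and 1 lower. The part of this list in the values of the pathway list and the 10 genes was not tested. Of 10 interferon-induced genes, 9 had enough UMIs in neutrophils and 9 of 9 were higher, where 9.61% of all genes were. Isg15 was among the 9, at 218 and 567 CPM. In neutrophils with interferon markers the Tnf ratio was 0.224, and in those without it was 0.357. Both values pool all neutrophil states, whose mix differed between the libraries, and were not held to the same mix. How far that mix enters them was not tested.

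Genes with a profile like that of Tnf were sought over 24 points, the log2(CPM + 1) of 12 classes and states in both libraries, among 9654 genes. The 5 most alike were Cited2 (r = 0.880), Tes (0.861), Gm15518 (0.851), Mthfsl (0.833) and Furin (0.827). Among the 10 genes themselves Tnfaip3 and Icam1 were the most alike pair (r = 0.927), followed by Nfkbia and Nfkbiz (0.920) and by Nfkb2 and Relb (0.826), the subunits of the non-canonical dimer. Rel and Nfkbia were the least alike (r = -0.396). These values are descriptions over points that share libraries and depth.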

How the data were processed

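Cells from the tumors of each group, described as immune cells, were pooled and sequenced with the 10x 3′ droplet method. What the authors deposited are raw UMI counts, 1 matrix a library with every barcode, neither normalized nor filtered for cells. The file header names Cell Ranger 7.1.0, the study's methods name another version, and the genome build is not given in the sources used here. Cells were called with a ranked-UMI cut-off (99th percentile of the top 3000 barcodes, divided by 10) plus a multinomial test against empty droplets (ranks 45000 to 90000, at least 500 UMIs, 10000 simulations, false discovery rate 0.01). Cells needed 200 genes and at most 20% mitochondrial UMIs. Scrublet scores (scanpy 1.11.5) set doublets at 0.8% per 1000 cells, since its own threshold marked 0 cells. Classes were gated by the fraction of marker genes present above the empty-droplet share, with a minimum of 2 or 3 markers, and 1 marker of a neutrophil state is not reported here. Counts were summed per class and scaled to CPM. With 1 library per group no test across samples was possible. A gene was called at a CPM ratio of at least 1.5 in either direction with at least 50 UMIs over both libraries. Intervals are exact Poisson, Clopper-Pearson and conditional binomial (scipy 1.17.1). Shares of cells used cells thinned to 1000 UMIs. The ratio, interval and fold rule were tested on simulated data.

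The genes and lists were chosen with earlier results of these data known. Named from the lists were the 3 genes with the most UMIs and the 3 largest ratios in each direction by class. The effect of 13 other settings, and of 2 more chosen after seeing the data, is given in the closing section.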

Additional observations from a re-analysis of the deposited data

Results flagged for a closer look

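Some genes moved in opposite directions in different classes, and none of these differences was tested. Tnf had a ratio of 2.64 in NK cells, against 0.376 in neutrophils, 0.530 in macrophages, 0.422 in dendritic cells, 0.440 in epithelial cells, 0.339 in B cells and 0.174 in plasma cells. The NK value rests on 19 and 104 UMIs in 34 and 108 cells, and the summed neutrophil markers of the PBS NK cells stood at 135137 CPM, above the 90859 CPM of empty droplets. In that class 41.4% of all genes were higher. Tnf in B cells lies near the level of free RNA in both libraries, while plasma cells held 117 CPM in PBS, above the 42.1 CPM of free RNA, and 20.4 CPM in cmExoaCD11b, at its level. The 42.1 CPM rests on a median free RNA share of 8.35% in PBS. Single estimates there reached 25.0%, so whether plasma cells stood above background is not settled.

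Icam1 had ratios of 4.002 in NK cells and 1.56 in T cells, against 0.511 in neutrophils and 0.588 in plasma cells. Nfkbiz had 1.503 in T cells and 0.559 in epithelial cells, and Tnfaip3 had 1.62 in NK cells and 0.455 in epithelial cells.

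The 1084 and 862 cells that no marker gate took also held these transcripts. They enter none of the comparisons by class, but they count in the totals of Tnf UMIs over all kept cells. Their Tnf ratio was 0.281 (616 and 173 CPM) and their Nfkbia ratio 0.297.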

How the results depend on the processing

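The Tnf ratio stayed below 1 in neutrophils, macrophages, monocytes and dendritic cells under every alternative run, between 0.345 and 0.673, 0.454 and 0.579, 0.638 and 0.713, and 0.371 and 0.593. In neutrophils (0.376 in the report) it was 0.673 with the ranked-UMI cut-off alone, past the fold no longer, 0.407 with a stricter gate, 0.364 with TMM scaling, 0.345 with each cell weighing the same, and 0.591 with the same mix of states, an alternative added after seeing the data. In dendritic cells it was 0.371 with the cut-off alone and 0.593 with equal cells, and in macrophages 0.454 with equal cells. Among the neutrophil states the Tnf ratio ran from 0.661 to 1.02 in immature cells, so its direction is not settled there. The highest ratio of mature neutrophils lay inside the fold. In T cells it was 0.769 with the cut-off alone, 0.863 with doublets kept and 1.16 with free RNA subtracted, so its direction is not settled. The cut-off alone calls 2407 and 2769 cells before the filters and doublet removal, against 7704 and 7901 in the full call. The Icam1 ratio in neutrophils turned from 0.511 to 1.00 with the same mix. With 10 genes in each of 6 classes (neutrophils, T cells, B cells, dendritic cells, macrophages and monocytes), 4 gene and class pairs were higher and 7 lower. Of all genes, 7.81% to 11.9% were higher and 6.59% to 9.38% lower, depending on the class. Whether the pairs depart from these shares was not tested, so their counts show no direction for the 10 genes. The higher count of pairs was 1 with doublets kept, 2 with mitochondrial and ribosomal genes out of the total and 0 at a fold of 2, where the lower count was 3. The ratio of shares of neutrophils with a Tnf UMI, 0.604, was 0.495 at 500 UMIs and 0.890 without thinning. Except where stated, the cause was not tested. No paired analysis was possible because each group has 1 library, and for the same reason no replicate could be left out.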
